A study of Danio rerio with 16 samples.

Results

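The 6 genes described here code for matrix proteases and for an inhibitor of them: mmp2 (ENSDARG00000017676), mmp9 (ENSDARG00000042816), mmp13a (ENSDARG00000012395), adam8a (ENSDARG00000001452) and a pair of genes that share the symbol TIMP2. They were chosen by gene ID and are 6 of the 32520 IDs in the deposited count table. The tables used here do not say which TIMP2 gene is timp2a and which timp2b. ENSDARG00000061226 is therefore called the first TIMP2 paralog and ENSDARG00000075261 the second.

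RNA came from ventricles of adult zebrafish, either wild type of the AB (Oregon) strain or of the mutant line ankrd1abns502, made by CRISPR/Cas9 editing of ankrd1a, a muscle gene whose protein carries ankyrin repeats. Injured fish had a probe, chilled with liquid nitrogen, held against the tip of the ventricle for 25 seconds, sham fish were touched with a probe at room temperature, and all were kept for 7 days afterwards. The 4 groups were sham wild type, injured wild type, sham mutant and injured mutant, each with 4 libraries, and each library pooled 3 ventricles. The strain background of the mutant line is not given in the sources used here, so an effect of the mutation and a difference between the lines cannot be told apart.

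Matrix metalloproteinases are zinc enzymes, made as inactive precursors, that cut collagens and other matrix proteins. The gelatinases MMP2 and MMP9 cut denatured collagen and basement membrane collagen, and MMP13 is a collagenase that cuts fibrillar collagen. ADAM8 is a metalloprotease anchored in the cell membrane, known in mammals from leukocytes. TIMP2 binds and blocks active metalloproteinases, and in mammals it also takes part, with the membrane protease MMP14, in the activation of the MMP2 precursor. After cryoinjury of the zebrafish heart a temporary scar is laid down and later removed, and matrix proteases are known to act in that remodelling.

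Total counts ranged from 5623721 to 12254719 per library. The cardiomyocyte markers summed to between 36812 and 78452 counts per 1000000 (CPM) in all libraries, as the labelled tissue implies. The symbol ANKRD1 belonged to 2 IDs, which the tables do not assign to ankrd1a and ankrd1b. ENSDARG00000075263 had a log2 fold change, mutant over wild type, of -1.84 in sham fish (edgeR adjusted p = 0.254; 0.480 against 1.77 CPM) and of -0.06 in injured fish (edgeR adjusted p = 0.969), and ENSDARG00000076192 had at most 5 counts in any library, so neither checks the genotype labels. Levels below are CPM after TMM scaling, and a gene is called changed where the adjusted p of edgeR's quasi-likelihood test over all 14986 tested genes is below 0.05.

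The gelatinase gene mmp2 rose after injury in both genotypes. Its level was 127, 156, 101 and 136 CPM in replicates 1 to 4 of sham wild type and 469.6, 486, 412 and 331 CPM in injured wild type. In mutants it was 144, 141, 158 and 127 CPM after sham operation and 258, 312, 409 and 233 CPM after injury. No injured library overlapped with a sham library of its genotype. The means were 130.1 ± 23.1 and 425 ± 70.3 CPM in wild type, and 143 ± 13.0 and 303 ± 77.8 CPM in mutants (SD, n = 4). The rise was 3.26-fold in wild type (log2 fold change 1.71, edgeR adjusted p = 6.43e-06, SE 0.18) and 2.13-fold in mutants (log2 fold change 1.09, edgeR adjusted p = 0.000293, SE 0.18).

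The gene for the second gelatinase, mmp9, was low in sham ventricles and rose after injury in both genotypes. It was at 4.62, 6.51, 8.64 and 4.10 CPM in sham wild type and at 24.5, 65.0, 17.4 and 23.3 CPM in injured wild type. Sham mutants had 3.33, 0.974, 1.56 and 5.98 CPM, and injured mutants had 21.2, 22.9, 19.2 and 11.5 CPM. Sham and injured libraries did not overlap in either genotype, but replicate 2 of injured wild type stood far above the other libraries of its group. The rise was 5.48-fold in wild type (log2 fold change 2.45, edgeR adjusted p = 0.000694, SE 0.45) and 5.84-fold in mutants (log2 fold change 2.55, edgeR adjusted p = 0.000656, SE 0.47). Without replicate 2 of injured wild type the log2 fold change in wild type was 1.87 (edgeR adjusted p = 0.00271), and without replicate 4 of sham mutants that in mutants was 3.19. By RefSeq positions on the GRCz12tu assembly mmp9 overlaps dclre1b, a DNA repair gene, which had 43 to 126 counts per library and a log2 fold change of -0.01 after injury in wild type (edgeR adjusted p = 0.977). Also overlapping mmp9 were adora1b, which matched no ID, and zgc:110353, which had at most 3 counts per library.

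The collagenase gene mmp13a was close to the detection limit. It was counted 1, 2, 1 and 0 times in sham wild type and 2, 24, 4 and 5 times in injured wild type. In sham mutants the counts were 4, 2, 5 and 25, and in injured mutants 6, 20, 9 and 6. A single library held most of the group's counts in injured wild type (replicate 2) and in sham mutants (replicate 4, the deepest library of the series). In CPM, sham and injured libraries overlapped in both genotypes, while sham wild type (0 to 0.318 CPM) lay just below sham mutants (0.325 to 2.49 CPM). The libraries at that border, replicate 2 of each sham group, both had 2 counts, so in counts the groups touched. Libraries of the sham groups did not overlap for 13.8% of all tested genes. The gene mmp13a did not pass the filter on low counts. With no filter its log2 fold change after injury was 2.43 in wild type (edgeR adjusted p = 0.101, SE 0.97) and 0.25 in mutants (edgeR adjusted p = 0.893, SE 0.71). Sham wild type lay at or below 3 counts in every library, against which the mean of injured wild type, 1.01 CPM, was at least 1.91-fold higher; without replicate 2 that mean was 0.421 CPM, below the 0.530 CPM that 3 counts per library stand for.

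The membrane protease gene adam8a had the largest fold change of the 5 tested genes in both genotypes. Sham wild-type libraries held 0.684, 1.43, 0.823 and 1.71 CPM, which were 4 to 10 counts, and injured wild-type libraries held 37.6, 64.6, 27.9 and 41.7 CPM. In sham mutants the level was 5.13, 1.30, 3.90 and 5.79 CPM and in injured mutants 96.9, 70.7, 122 and 84.3 CPM. Every injured library was thus far above every sham library of either genotype. The rise was 36.1-fold in wild type (log2 fold change 5.17, edgeR adjusted p = 5.79e-07, SE 0.40) and 22.5-fold in mutants (log2 fold change 4.49, edgeR adjusted p = 4.69e-07, SE 0.34). By RefSeq positions on GRCz12tu adam8a overlaps znf511, a zinc finger gene. Whether the counting used strand is not given in the sources used here. The neighbour znf511 had 5 to 19 counts per library and a log2 fold change of 0.07 after injury in wild type (edgeR adjusted p = 0.909).

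The inhibitor genes went apart. The first TIMP2 paralog was at 120.2, 149, 112 and 105 CPM in sham wild type and at 137, 179, 164 and 109 CPM in injured wild type. Sham mutants had 151, 125, 149 and 121 CPM and injured mutants 127, 181, 179.6 and 119.8 CPM, so all 4 groups overlapped. Its log2 fold change after injury was 0.28 in wild type (edgeR adjusted p = 0.279, SE 0.18) and 0.16 in mutants (edgeR adjusted p = 0.548, SE 0.18).

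The second TIMP2 paralog was low in sham ventricles and rose steeply. It had 10.8, 8.41, 4.53 and 12.5 CPM in sham wild type and 132, 104, 63.6 and 84.3 CPM in injured wild type. It had 22.3, 9.09, 16.0 and 17.8 CPM in sham mutants and 313, 199.6, 296 and 208 CPM in injured mutants. No injured library came near a sham library, and every injured mutant library was above every injured wild-type library. The rise was 10.5-fold in wild type (log2 fold change 3.39, edgeR adjusted p = 1.80e-06, SE 0.31) and 15.5-fold in mutants (log2 fold change 3.96, edgeR adjusted p = 4.69e-07, SE 0.31).

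**Figure D1:**
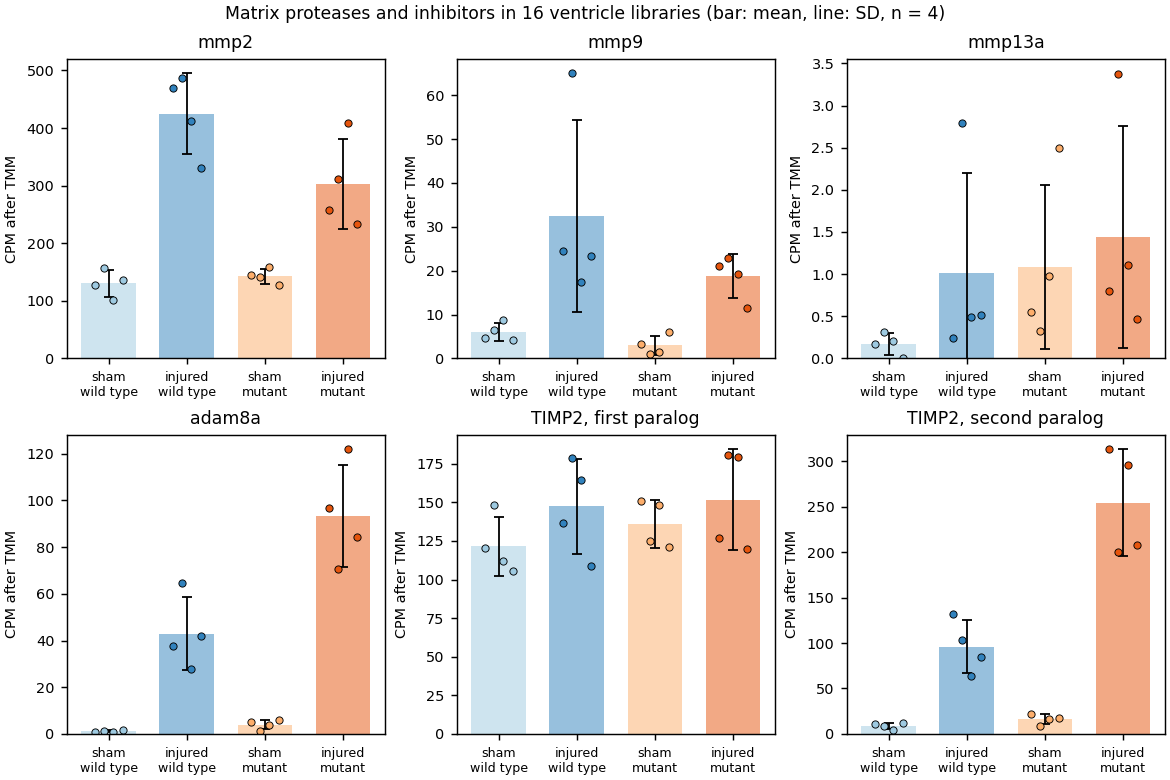
Level of each of the 6 genes in CPM after TMM scaling (vertical axes, linear, from 0) in the 4 groups; points are libraries, bars are means and lines are SD (n = 4). The first TIMP2 paralog overlaps in all groups, the second rises after injury and is highest in injured mutants, and mmp9 and mmp13a each have 1 high library in injured wild type. For mmp13a, replicate 4 of sham mutants (2.49 CPM) and replicate 2 of injured mutants (3.37 CPM) also stand above the rest of their groups.

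Of the 5 genes that passed the filter, mmp2, mmp9, adam8a and the second TIMP2 paralog were called higher after injury in each genotype, with sham and injured libraries apart. Over all tested genes, 13.9% were called higher in wild type and 16.5% in mutants, and libraries did not overlap for 26.1% and 29.2%. Injured and sham ventricles also differed in markers of other cell types. Of 19 leukocyte marker IDs, 18 were tested, of which 16 were higher after injury in wild type and 17 after injury in mutants. Their summed level was 180 to 290.5 CPM in sham wild type, 846 to 1236 CPM in injured wild type, 278 to 597 CPM in sham mutants and 960 to 1620.1 CPM in injured mutants. One MPEG1 ID (ENSDARG00000078569) was at 0 in every library. Of 11 fibroblast and matrix marker IDs, 10 were higher after injury in each genotype, with sums of 2464 to 3552 CPM in the sham and 11088 to 12082 CPM in the injured wild type, and of 2836 to 3446 CPM and 7909 to 12293 CPM in mutants. Cardiomyocyte markers summed to 60199 to 66967 CPM in sham and 36812 to 46650.0 CPM in injured wild type; in mutants the sham range, 59444 to 78452 CPM, and the injured range, 37669 to 63862 CPM, overlapped. Also called higher after injury were 4 of 5 epicardial IDs in wild type and 2 in mutants, and in each genotype 3 of 4 thrombocyte IDs and 4 of 5 tested atrium and bulbus IDs. The part of these markers in the changes of the proteases and inhibitors was not tested, and in whole ventricles more cells of a type and more RNA per cell cannot be told apart.

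**Figure D2:**
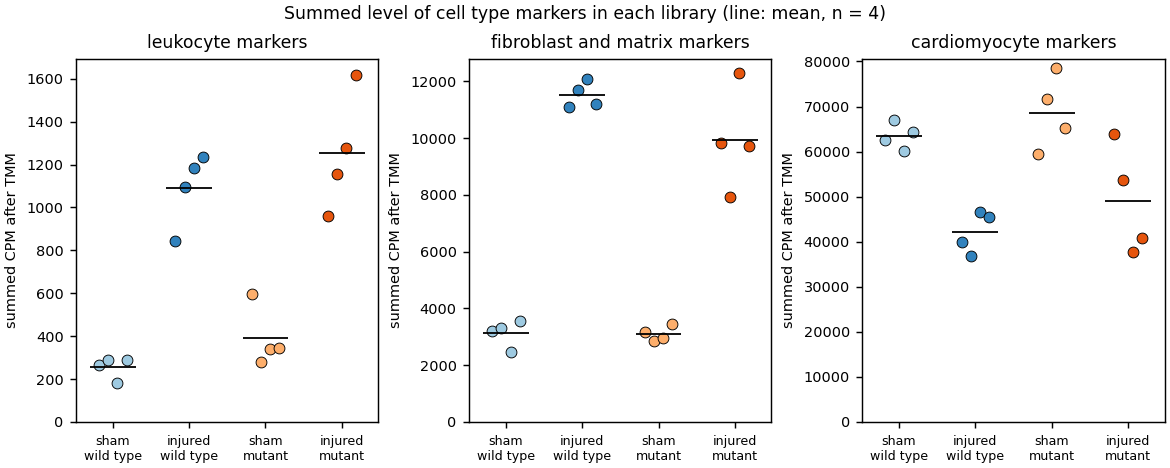
Summed CPM after TMM scaling of the leukocyte, fibroblast and matrix, and cardiomyocyte marker lists in each library (points) with the group mean (line, n = 4). Leukocyte and fibroblast sums are higher in all injured than in all sham libraries of the same genotype, and sham mutant replicate 1 has the highest leukocyte sum of the sham libraries, 597 CPM.

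Between genotypes, adam8a and the second TIMP2 paralog were higher in mutants, and the 3 other tested genes were not called. In injured fish the second TIMP2 paralog averaged 254 ± 59.0 CPM in mutants and 95.9 ± 29.0 CPM in wild type (SD, n = 4), a 2.65-fold difference (log2 fold change 1.41, edgeR adjusted p = 0.0108, SE 0.28). In sham fish it averaged 16.3 ± 5.49 and 9.04 ± 3.44 CPM, a difference that missed the threshold (log2 fold change 0.84, edgeR adjusted p = 0.12, SE 0.31). The background of calls was low: 2.56% of tested genes differed between genotypes in injured and 5.81% in sham fish, and 1.12% and 2.62% were higher in mutants. Of the 18 leukocyte IDs tested none was called between genotypes in injured fish, and their median log2 fold change was 0.05. The means of single IDs went both ways. In injured mutants ptprc was at 59.6 CPM against 38.7 CPM in wild type, and CSF3R at 6.05 CPM against 11.7 CPM. Other lists did differ there: 2 of 5 epicardial IDs were lower in mutants (median log2 fold change -0.85), as were 2 of 3 erythrocyte IDs (median -1.90), and of 5 tested atrium and bulbus IDs 1 was higher and 1 lower. Of 11 fibroblast and matrix IDs 1 was called, lower in mutants (median log2 fold change -0.30). The atrium and bulbus sum was higher in mutants without overlap, at 3050 to 3759 CPM against 896 to 2616 CPM in injured fish. In sham fish it was at 928 to 1941 CPM against 499 to 920.2 CPM. Most of this sum came from 1 MYH6 ID (ENSDARG00000079564). Its mutant mean was 3164 CPM, against 1099 CPM for wild type, after injury, and 1113 against 416 CPM after sham operation. The next largest, myh6 (ENSDARG00000090637), went the other way, with mutant means of 124 against 557 CPM after injury and 186 against 278 CPM after sham operation. The ventricular myosin gene vmhc, on the cardiomyocyte list, matched no ID by name. Whether ENSDARG00000079564 is an atrial or a ventricular gene is not settled by its symbol. The atrium and bulbus sum is therefore not read here as a level of atrial tissue. The part of these lists in the genotype differences of adam8a and the second TIMP2 paralog was not tested.

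For adam8a the mutants averaged 93.5 ± 21.8 CPM against 43.0 ± 15.6 CPM in injured fish (SD with n = 4; log2 difference 1.12, edgeR adjusted p = 0.0431, SE 0.28), with no overlap. Libraries did not overlap for 8.03% of all genes tested in that comparison. In sham fish the means were 4.03 ± 1.98 and 1.16 ± 0.487 CPM (log2 fold change 1.80, edgeR adjusted p = 0.0245, SE 0.45). Libraries of the sham groups did not overlap for 13.8% of all tested genes, but for adam8a sham mutant replicate 2, at 1.30 CPM, lay within the wild-type range. That library also had the lowest leukocyte sum of the sham mutants, 278 CPM. The highest adam8a level, 5.79 CPM in sham mutant replicate 4, went with a sum of 346 CPM. The highest sum, 597 CPM in replicate 1, went with 5.13 CPM of adam8a. The largest parts of the sum in sham mutants were cd74a and cd74b, at means of 166 and 72.1 CPM. Of the 18 leukocyte IDs 1 was called, higher in sham mutants, a share of 5.56% against 5.81% of all tested genes. Their median log2 fold change in sham fish was 0.36, against -0.005 over all tested genes. The part of leukocyte RNA in the adam8a difference was not tested. Both adam8a calls were close to the threshold. In sham fish the edgeR adjusted p was 0.0639 without sham mutant replicate 1, 0.0884 without sham mutant replicate 4, 0.0728 without sham wild-type replicate 1, 0.0512 without replicate 2 and 0.0629 without replicate 3 of that group. In injured fish it was 0.0852, 0.113 and 0.0631 without injured mutant replicates 1, 3 and 4, and 0.0709, 0.131 and 0.083 without injured wild-type replicates 1, 3 and 4. It was 0.0807 with the replicate number as a block and 0.0572 with only the compared groups in the fit. With single libraries left out the log2 fold change stayed between 1.55 and 2.08 in sham and between 0.96 and 1.38 in injured fish.

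The means of mmp2 and mmp9 were lower in injured mutants than in injured wild type, but the differences were not called. For mmp2 the log2 fold change was -0.49 (SE 0.18, unadjusted p = 0.014, edgeR adjusted p = 0.172), and 1 injured mutant library, replicate 3 at 409 CPM, lay within the wild-type range. For mmp9 it was -0.81 in injured fish (edgeR adjusted p = 0.346, SE 0.41, and -0.23 with injured wild-type replicate 2 left out) while sham fish gave -0.90 (edgeR adjusted p = 0.336, SE 0.50). The first TIMP2 paralog had log2 fold changes of 0.17 in sham ventricles (edgeR adjusted p = 0.675, SE 0.18) and 0.04 in injured fish (edgeR adjusted p = 0.937, SE 0.18). For mmp13a, fitted with no filter, they were 2.61 in sham (edgeR adjusted p = 0.15, SE 0.97) and 0.43 in injured fish (edgeR adjusted p = 0.844, SE 0.71). By the same RefSeq positions neither the 4 protease genes nor timp2a and timp2b share a chromosome with ankrd1a.

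Whether the response to injury itself differed between genotypes was asked as the interaction. None of the 5 tested genes was called, nor was any of the 14986 genes by edgeR (0.00%); 7.71% of genes had an unadjusted p below 0.05, and DESeq2 called 0.222% of its tested genes and no member. The largest interaction relative to its error was that of mmp2, whose rise was smaller in mutants by 0.62 on the log2 scale (log2 interaction -0.62, SE 0.25, unadjusted p = 0.0256, edgeR adjusted p = 0.587). The log2 interaction was 0.56 for the second TIMP2 paralog (edgeR adjusted p = 0.787, SE 0.41), -0.68 for adam8a (edgeR adjusted p = 0.807, SE 0.54), 0.09 for mmp9 (edgeR adjusted p = 0.987, SE 0.63) and -0.12 for the first TIMP2 paralog (edgeR adjusted p = 0.94, SE 0.25).

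**Figure D3:**
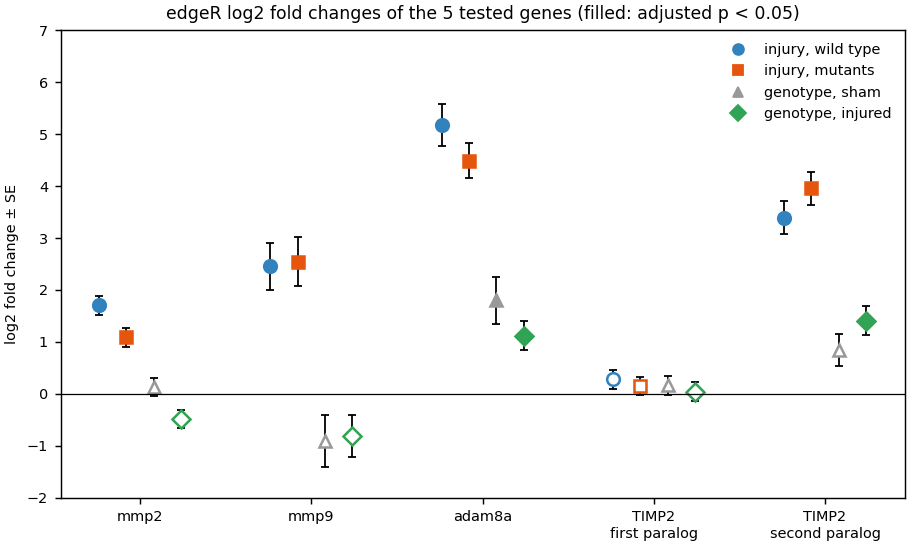
Log2 fold changes with SE (vertical axis) of the 5 tested genes in the 2 injury comparisons (injured over sham) and the 2 genotype comparisons (mutant over wild type); filled symbols have an edgeR adjusted p below 0.05. The first TIMP2 paralog lies near 0 throughout, and adam8a and the second TIMP2 paralog combine the largest injury effects with higher levels in injured mutants.

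The balance between members within a library does not depend on library scaling and was followed as the log2 ratio of their counts. Because counts also depend on gene length, changes in a ratio are read here, and not its size. The first over the second TIMP2 paralog fell in every injured library below every sham library. The log2 ratio was 3.82 ± 0.68 in sham and 0.65 ± 0.57 in injured wild type, and 3.12 ± 0.48 in sham and -0.74 ± 0.47 in injured mutants (SD, n = 4). Averaged over genotypes it changed by -3.52 (exact two-sided permutation p = 0.000408 within genotypes, the smallest that the 4900 arrangements can give; 0.000544 adjusted over 4 ratios).

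The gelatinase mmp2 gained on the first TIMP2 paralog and lost to the second. The log2 ratio of mmp2 to the first paralog changed by 1.18 on average over genotypes, with wild type going from 0.09 ± 0.21 to 1.54 ± 0.20 and mutants from 0.07 ± 0.10 to 0.99 ± 0.16 (SD, n = 4). The log2 ratio of mmp2 to the second paralog changed by -2.33, with wild type going from 3.91 ± 0.49 to 2.18 ± 0.38 and mutants from 3.19 ± 0.57 to 0.25 ± 0.40 (SD, n = 4). Both had the smallest exact permutation p, 0.000408 (0.000544 adjusted over 4 ratios). The log2 ratio of mmp2 to the second paralog is the sum of those of mmp2 to the first and of the first to the second. The ratios among mmp2 and the paralogs are therefore not separate results. The log2 ratio of mmp9 to mmp13a changed by 1.58 on average (exact permutation p = 0.00653 before and after adjustment). The change was 0.61 in wild type, where sham (4.05 to 5.62) and injured libraries (4.51 to 6.32) overlapped, and 2.55 in mutants, and mmp13a had at most 5 counts in 10 of the 16 libraries.

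The same ratios, with the same dependence among them, were then compared between genotypes, a choice made after the data had been seen. Averaged over sham and injured fish, mutants had a lower log2 ratio of mmp2 to the second TIMP2 paralog, by -1.33 (exact permutation p = 0.00163, 0.00653 adjusted over 8 tests), and of the first to the second paralog, by -1.04 (exact permutation p = 0.00367, 0.0098 adjusted). The difference was -0.29 for mmp2 to the first paralog (exact permutation p = 0.0237, 0.0474 adjusted) and -2.28 for mmp9 to mmp13a, at the low mmp13a counts given above (exact permutation p = 0.00122, 0.00653 adjusted). For mmp2 to the first paralog the genotypes were apart in injured fish, at means of 0.99 in mutants and 1.54 in wild type. The sham means were close, at 0.07 and 0.09. In injured fish the ratio of mmp2 to the second paralog ran from -0.28 to 0.65 in mutants and from 1.83 to 2.69 in wild type, without overlap. In sham fish that ratio overlapped, at 2.69 to 3.94 in mutants and 3.44 to 4.44 in wild type. The response to injury in mutants minus that in wild type was -1.21 for mmp2 to the second paralog (exact permutation p = 0.18, 0.238 adjusted). It was -0.69 for the paralogs (exact permutation p = 0.393). For mmp2 to the first paralog it was -0.52 (exact permutation p = 0.0433, 0.0692 adjusted), and for mmp9 to mmp13a 1.94 (exact permutation p = 0.209, 0.238 adjusted). No adjusted p of these differences passed the threshold. The permutations exchanged genotype labels within each treatment, which assumes no genotype difference at all. Because the averaged genotype differences given above widen the permuted values, these tests cannot decide whether the responses were equal.

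**Figure D4:**
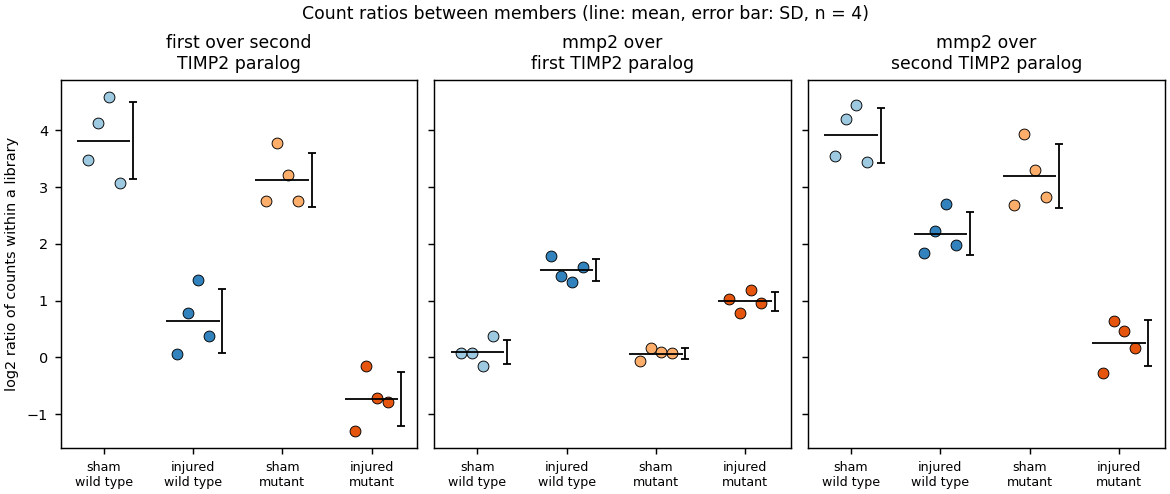
Log2 ratio of counts within each library (points) for 3 pairs of members by group, with the mean (line) and SD (bar, n = 4). Within each genotype, injured libraries lie below sham libraries for the ratios to the second TIMP2 paralog and above them for mmp2 to the first paralog, and injured mutants lie lowest for both ratios that hold the second paralog.

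The genes whose levels ran most like those of each member over the 16 libraries were found by the smallest root mean square difference of centred log2 CPM among 8581 genes. For mmp2 they were MMP14 (ENSDARG00000002235, difference 0.23), the collagen VI gene col6a1 (0.24) and MXRA8, a matrix remodelling associated gene (0.25). For the second TIMP2 paralog they were LOX, the collagen cross-linking enzyme lysyl oxidase (0.54), and the cathepsin S gene ctss2.1 (0.55). For adam8a they were PAMR1 (0.68), COL12A1, a fibril-associated collagen (0.81), and si:ch211-136a13.1 (0.86). For mmp9 they were the matricellular protein gene POSTN (0.54), UHRF1 (0.63) and the replication gene MCM5 (0.64). The first TIMP2 paralog varied little, by 0.26 around its own mean, and its nearest genes, TAF6, ppiaa and tmem179ba (0.17 to 0.18), were those that also varied little.

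The other genes of the pathway were taken from lists of metalloproteinases, ADAM and ADAMTS proteases, their inhibitors, the plasminogen system, cathepsins and further matrix proteases. Of 109 such IDs, 71 were tested. After injury 43 were higher and 3 lower in wild type, a share called of 64.8% against 25.3% of all tested genes. In mutants 43 were higher and 2 lower, a share of 63.4% against 28.9%. The median log2 fold change of the 71 was 0.87 in wild type, against 0.01 over all tested genes, and 0.84 in mutants, against -0.01.

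Among the metalloproteinases, both MMP14 genes, whose protein is a membrane protease that activates the MMP2 precursor, rose. ENSDARG00000008388 went from 21.1 ± 6.17 to 106 ± 17.0 CPM in wild type (SD with n = 4; log2 difference 2.33, edgeR adjusted p = 9.29e-07, SE 0.20), and mutants showed a log2 fold change of 1.46 (edgeR adjusted p = 4.56e-05, SE 0.20). ENSDARG00000002235 had log2 fold changes of 1.75 in wild type (edgeR adjusted p = 4.10e-06, SE 0.18) and 1.20 in mutants (edgeR adjusted p = 8.77e-05, SE 0.17). The membrane protease gene MMP15 (ENSDARG00000051962) had a log2 fold change of 1.77 in injured over sham wild type (edgeR adjusted p = 2.59e-05, SE 0.22). MMP23B (ENSDARG00000043079) was the only gene of the MMP list called lower, by -0.51 in wild type and -0.54 in mutants (edgeR adjusted p = 0.0233 and 0.0155). Also called lower after injury were 2 ADAMTS genes in wild type and 1 gene of the cathepsin list in mutants. The paralog of mmp13a, mmp13b (ENSDARG00000100794), named after its values were seen, was called higher in both genotypes (edgeR adjusted p = 0.000317 and 0.00528). It had at most 3 counts in every sham library, so it passed the filter on low counts only through its injured libraries. Its adjusted p-values are therefore not read as support. By group means it was at least 6.76-fold higher in injured wild type and at least 3.64-fold higher in injured mutants. The injured means, 3.58 CPM in wild type and 1.63 CPM in mutants, were 2.45 and 1.27 CPM without replicate 2 of the group. In the sham groups 3 counts per library stand for 0.530 and 0.447 CPM.

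Of the inhibitors beside TIMP2, RECK, a membrane-anchored inhibitor of metalloproteinases, rose, with log2 fold changes of 0.61 in wild type and 0.39 in mutants (edgeR adjusted p = 0.00192 and 0.0266). In mutants TIMP4 (ENSDARG00000102617) was also called higher after injury (edgeR adjusted p = 0.0107), at 7 to 20 counts per injured and at most 3 per sham library, which made it at least 3.6-fold higher. Like mmp13b it passed the filter only through injured libraries, so this adjusted p is not read as support. In the plasminogen system, the urokinase gene plaua, which codes for a plasminogen activator, rose by 3.65 and 4.10 on the log2 scale (edgeR adjusted p = 5.08e-05 and 1.16e-05). Its sham counts were few, at 1 to 9 per library in wild type and 2 to 8 in mutants. Injured libraries had 58 to 97 and 40 to 232 counts. The tissue plasminogen activator gene PLAT rose by 1.20 and 1.91 (edgeR adjusted p = 0.00162 and 3.32e-05). The ID with the symbol PLAU (ENSDARG00000039145) had at most 10 counts per library and was not tested. The cathepsin gene CTSZ rose by 2.25 and 2.03 on the log2 scale (edgeR adjusted p = 9.04e-07 and 1.34e-06). The ADAM gene adam8b, the paralog of adam8a, rose by 1.70 and 1.92 (edgeR adjusted p = 0.0003 and 9.62e-05), less steeply than adam8a in these estimates, a difference that was not tested.

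**Figure D5:**
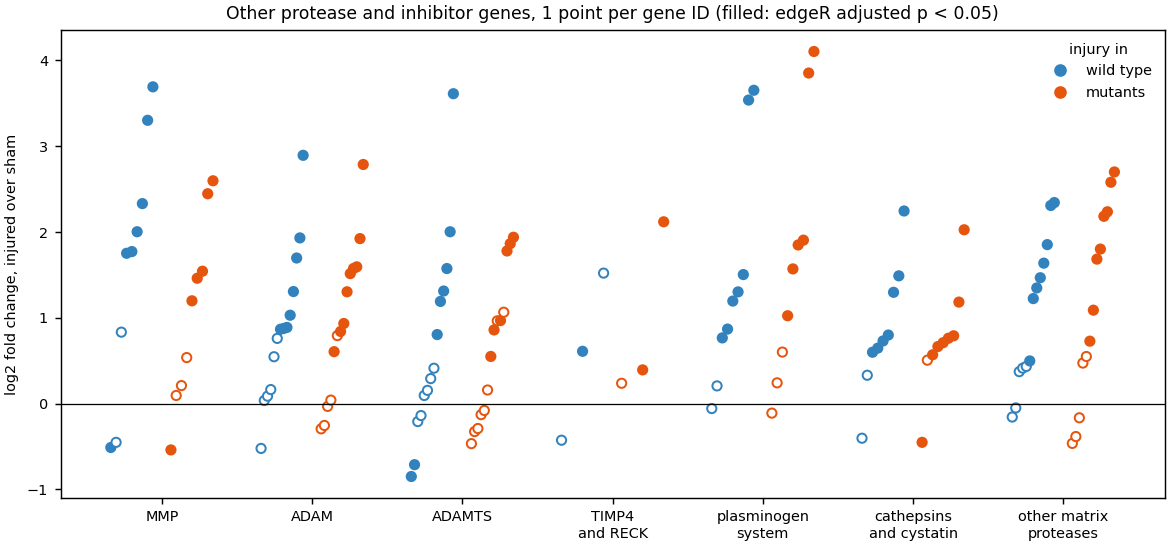
Log2 fold change after injury (vertical axis) of the 71 tested protease and inhibitor genes outside the 6 described above, by list and genotype, 1 point per gene ID; filled points have an edgeR adjusted p below 0.05. Most called points lie above 0 in both genotypes. The gene plaua has log2 fold changes of 3.65 in wild type and 4.10 in mutants, from at most 9 counts per sham library.

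Between genotypes, 3 of the 71 genes were called in sham fish, all lower in mutants, a share of 4.23% against 5.81% of all tested genes. They were the ADAMTS protease genes ADAMTS1 (log2 fold change -1.78, edgeR adjusted p = 0.00689, SE 0.36) and ADAMTS8 (ENSDARG00000007709; log2 fold change -1.51, edgeR adjusted p = 0.00613, SE 0.30), and TIMP4 (ENSDARG00000100795), whose mean was 6.31 ± 2.93 CPM in wild type and 1.86 ± 0.299 CPM in mutants (SD with n = 4; log2 difference -1.76, edgeR adjusted p = 0.0118, SE 0.39). In injured fish 4 were called, a share of 5.63% against 2.56%. Higher in mutants were the lysosomal protease gene CTSD, at 253 ± 41.8 against 155 ± 11.2 CPM (SD with n = 4; log2 difference 0.71, edgeR adjusted p = 0.00834, SE 0.13), and adam19a (log2 fold change 0.68, edgeR adjusted p = 0.0498, SE 0.18). Lower were ADAMTS15 (ENSDARG00000033544; log2 fold change -1.44, edgeR adjusted p = 0.00961, SE 0.28) and ADAMTS10 (log2 fold change -0.95, edgeR adjusted p = 0.0299, SE 0.22). Over 15 alternatives the call was lost in 12 for adam19a (highest adjusted p 0.157), 6 for ADAMTS10 (0.0898), 1 for CTSD (0.0531) and 0 for ADAMTS15; with the replicate block, or with only the compared groups, 2 of the 4 were called. Among single libraries, leaving out any injured wild-type replicate or injured mutant replicate 2, 3 or 4 ended the call of adam19a, and leaving out injured mutant replicate 1, 2 or 3 or injured wild-type replicate 2 or 3 ended that of ADAMTS10. In sham fish TIMP4 lost its call in 1 alternative, without sham wild-type replicate 2 (edgeR adjusted p = 0.0526). None of the 71 was called for the interaction.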

How the data were processed

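Poly(A)-selected RNA of 16 libraries was sequenced after a stranded library preparation, per the labels' protocols. The submitters' processing notes list fastp 0.23.4, STAR (versions 2.7.0 and 2.7.10) and RSEM 1.3.3; genome build and annotation are not given in the sources used here. The deposited table holds the authors' expected counts per gene, with 3.00% to 5.02% of values not whole in a library, and they were rounded. No pair of libraries of a group agreed within sampling noise. Nothing says how the fish of a group were related, so p-values measure the spread between these pooled libraries.

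In R 4.3.3, edgeR 4.0.16 (with limma 3.58.1) was run with TMM scaling, its default filter on low counts, 1 mean per group over all libraries, quasi-likelihood tests and Benjamini-Hochberg adjustment over 14986 genes. DESeq2 1.42.0, other scalings, filters and sample sets, and leaving out single libraries were alternatives. Ratios used count + 0.5 and exact permutation, of injury labels within genotype or, for the genotype comparisons, of genotype labels within treatment. The procedure was tested on simulated data. The filter kept 5 of the 6 genes. Symbols were paired with 29201 of 32520 IDs; names such as timp3 and plaur matched no ID and were not analysed here. Other pathway genes were named where called: for injury the largest rises and falls (up to 5 each) with a group mean of at least 10 CPM and no overlap of libraries, for genotype all with at least 5 CPM, plus a fixed few (MMP14, RECK, TIMP4, the urokinase genes and PLAT). One gene that these rules name is not reported here. The genes and lists were chosen with earlier results of these data known.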

Additional observations from a re-analysis of the deposited data

Results flagged for a closer look

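Replicate 2 of injured wild type stood apart from the other libraries of its group for 2 genes. Its mmp9 level was 65.0 CPM, with a gap to the next library of 0.849 of the group's range. Its mmp13a level was 2.79 CPM, with a gap of 0.893 of the range. Both gaps were above the critical value of Dixon's test for 4 libraries, and among the 24 groups of libraries examined chance flags about 1 in 20. This library was the highest of its group for 5 of the 6 genes. Its leukocyte marker sum, 1095 CPM, lay within the range of the group. The largest parts of that sum in injured wild type were cd74a and cd74b, at means of 337 and 195 CPM. The part of leukocyte RNA in the high levels of this library was not tested.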

How the results depend on the processing

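Over 25 tests of the 5 genes, 387 of 410 alternative values kept their direction and side of the threshold, 13 calls were lost, all of adam8a between genotypes, and none was gained. In injured fish 2 of the 5 genes were called between genotypes, but 1 with the replicate block, 1 with only the compared groups in the fit, and 1 to 2 when single libraries were left out; in sham fish that count was 0 to 1. The adam8a adjusted p was 0.0807 with the block, 0.0572 with only the compared groups and 0.013 by DESeq2. The second TIMP2 paralog stayed called in injured fish in each alternative run. Of the pathway list, 4 genes were called between genotypes in injured fish, 2 with the block, 2 with only the compared groups, 2 to 4 without single libraries and 1 at an absolute log2 fold change of at least 1. Signs changed only for values that were not called: the first TIMP2 paralog between genotypes in injured fish (-0.079 to 0.15 without single libraries) and the mmp9 interaction (-0.18 to 0.74). Deviations of 24 same-numbered pairs correlated at -0.228 to 0.207, median 0.0228. Mutant and wild-type libraries of the same number gave 0.207, 0.083, 0.035 and 0.172 in injured fish (replicates 1 to 4). In sham fish they gave 0.146, -0.013, 0.032 and 0.109. Pairs of different numbers were not examined, so whether replicate numbers pair the samples is not settled. For mmp13a, counts are few and single libraries hold most of them. The cause of these changes was not tested.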
